A study of Mus musculus with 2 samples.

Results

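The 31 genes described here make or handle the ceramides and other lipids of the skin barrier, and they were taken as a listed set: serine palmitoyltransferase subunits, ceramide synthases, fatty acid elongases, the enzymes that build acylceramide, the lamellar body transporter, ceramide-releasing and ceramide-degrading enzymes, the epidermal lipoxygenase route with transglutaminase 1, and epidermal acid lipases. All 31 were among the 19059 genes of the probe set. They were followed by keratinocyte stage, in sebaceous cells, and between genotypes, in single-cell RNA sequencing of untreated back skin of a wildtype mouse (C57BL/6J) and of an *Eppk1*-/- mouse backcrossed into that strain, 1 animal each. *Eppk1* encodes epiplakin, a cytoskeletal linker of epithelia. Neither age nor sex is stated in the sources used here. From each mouse 1 punch of skin was dissociated with enzymes, fixed, and measured with gene-specific probe pairs, so that each genotype is 1 library of 1 animal and no difference between genotypes could be tested.

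The barrier lipids are made as keratinocytes move outward. Very long fatty acids are elongated, omega-hydroxylated and joined to a sphingoid base by a ceramide synthase, and the product is esterified with linoleate to give acylceramide. Ceramides are then glucosylated, loaded into lamellar bodies and secreted, and enzymes outside the cell set them free again. Lipoxygenases and a dehydrogenase oxidise the linoleate so that ceramide can be bound to the cornified envelope, which transglutaminase cross-links. Inherited loss of many of these genes causes ichthyosis. Sebaceous cells use some of the same elongases and synthases for the lipids of sebum.

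The libraries held 9179 and 8811 cells with 77638793 and 65118304 UMIs (wildtype and *Eppk1*-/-, the order of all paired values below), where a UMI is 1 counted molecule. Both mice were pooled under their own probe barcodes, and 1211 droplet barcodes occurred in both libraries. After filtering, 5526 and 4112 cells lay in 10 keratinocyte clusters and 150 and 131 in 1 cluster that carried 11 sebaceous markers. UMIs were summed per library and class of cells and scaled to the class total (counts per 1000000 UMIs, CPM), so a level describes the pooled RNA of a class. Probe pairs per gene are not given in the files, and levels of different genes were therefore not compared. *Eppk1* itself went from 1060.2 to 72.0 CPM in the lowest keratinocyte stage, from 4777 to 1018 CPM in the third, but only from 6073 to 4814 CPM and from 2253 to 1983 CPM in the last pair of stages. The place of its probes relative to the deleted part is not given in the sources used here.

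Stages were cut by differentiation markers. The 5% of keratinocytes with the largest share of UMIs from *Flg* and *Lor* (filaggrin and loricrin, granular layer proteins) were cut at their median into a first and an upper Flg+Lor stage. All other keratinocytes were cut at the tertiles of their share of UMIs from *Krt1* and *Krt10* (keratins of the suprabasal layers) into a low, a middle and a high stage. In that order the wildtype library gave 1717, 1895, 1636, 149 and 129 cells and the *Eppk1*-/- library 1335, 1157, 1416, 92 and 112 cells. *Krt5*, a basal keratin that the cuts did not use, stood at 7522, 7518, 1866, 324 and 74.6 CPM (wildtype) and 8666, 8643, 2093, 599 and 98.9 CPM (*Eppk1*-/-), and was thus alike in the low and middle stages and lower in each later one. The border between the low and middle stages lay at 0.0280% of UMIs, so that very few UMIs a cell set it. Of the 9156 cells cut there, 419 lay within 10% of this border. An onset in the middle stage could therefore be missed. *Lor*, which the cuts used, stood at 72.1, 95.3, 77.9, 9802 and 103235 CPM (wildtype) and 57.5, 73.7, 48.6, 6974 and 89569 CPM (*Eppk1*-/-), with no order among the first 3 stages. Depth was alike in most stages, but the first Flg+Lor stage had a median of 10497 UMIs a wildtype cell and 2266 an *Eppk1*-/- cell. In the *Eppk1*-/- library 54 keratinocytes, 52 of them in the cluster led by Lce genes, also held over 0.5% of their UMIs from sebaceous markers, against 0 in the wildtype library. They lay mostly in the Flg+Lor stages (31 and 20 cells), and several comparisons of members between genotypes there are also given without them. Stage borders were drawn anew whenever cells were left out, so that other cells could change stage. The part of this in the ratios given without some cells was not tested.

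Most of the lipid barrier genes rose with differentiation in both libraries. From the low to the upper Flg+Lor stage, 19 of 31 members rose by at least 1 on the log2 scale in both libraries, where 8.99% of all genes tested did. Only 3 members fell by that much in both, against 55.9% of all genes. The median change of the members was 3.31 and 3.40, and that of all genes -1.55 and -1.53. The onset of a gene was set as the first stage with at least 50% of its highest stage level in both libraries. By this rule 8 members were on from the low stage, 0 began in the middle stage, 5 in the high stage, 8 in the first and 8 in the upper Flg+Lor stage, and 2 (*Cers4* and *Fa2h*) had no onset that the libraries shared. These onsets include the *Eppk1*-/- cells with sebaceous RNA and were not set without them. In the high stage *Elovl4* stood at 893 CPM beside a top of 1024 CPM (wildtype), but at 766 beside 1874 CPM (*Eppk1*-/-). *Ugcg* stood at 549 beside 945 and at 468 beside 976 CPM. Both were thus counted in the first Flg+Lor stage. *Cers4* and *Fa2h* had their top *Eppk1*-/- level in that stage, where most of those cells lay.

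**Figure D1:**
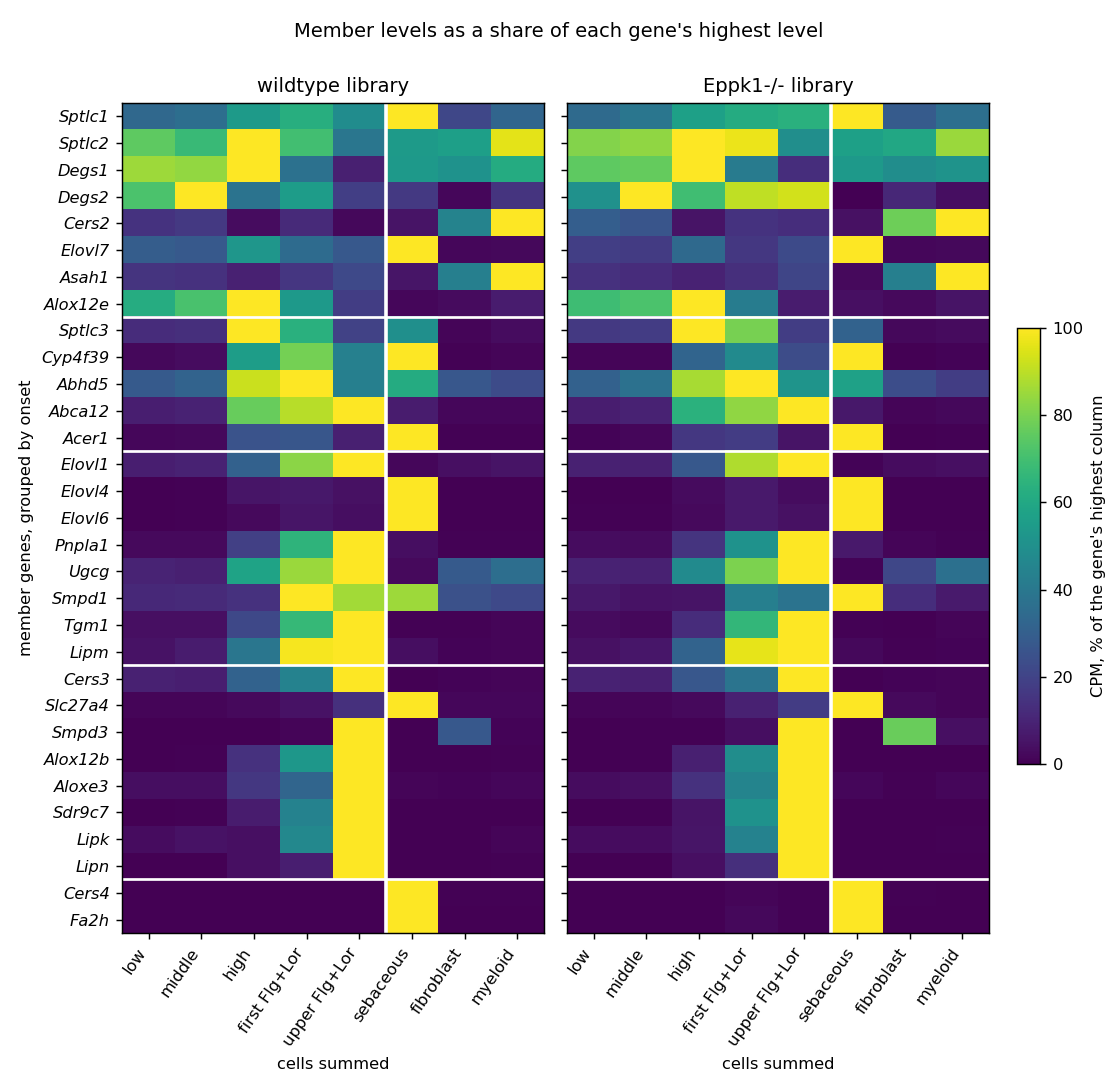
Level of each of the 31 members (rows, grouped from the top by onset in the low, high, first Flg+Lor and upper Flg+Lor stage, then no shared onset) in the 5 keratinocyte stages and in sebaceous, fibroblast and myeloid cells (columns), as percent of that gene's highest column in the wildtype (left) and *Eppk1*-/- (right) library. Both libraries show the same stair from the high to the upper Flg+Lor stage, and *Elovl4*, *Elovl6*, *Slc27a4*, *Acer1*, *Cers4* and *Fa2h* are brightest in sebaceous cells.

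The enzymes that start and finish the sphingoid chain were spread over the whole series of stages. *Degs1*, the desaturase that turns dihydroceramide into ceramide, stood at 404, 397, 473, 176 and 40.7 CPM (wildtype) and 349, 354, 463, 193 and 59.8 CPM (*Eppk1*-/-), from the low to the upper Flg+Lor stage, the order used throughout. It was thus highest in the high stage and fell in the upper Flg+Lor stage (log2 change from the low stage -3.30 and -2.54). *Sptlc3*, a serine palmitoyltransferase subunit, had its onset in the high stage, at 50.6, 53.4, 393, 249.9 and 77.4 CPM (wildtype) and 66.0, 69.3, 393, 313 and 71.6 CPM (*Eppk1*-/-). Levels of *Sptlc1* and *Sptlc2*, the other subunits, stayed between 28.7 and 104 CPM in all stages of both libraries.

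The ceramide synthases divided by stage and cell type. *Cers3*, which uses ultra-long acyl chains in the epidermis, rose to the upper Flg+Lor stage, from 30.5 and 31.8 CPM to 328 and 333 CPM, a log2 rise of 3.42 and 3.39. *Cers2*, which uses very long chains in many tissues, fell over the same stages (log2 change -2.71 and -1.15, on 793 keratinocyte UMIs). It stood at 19.9, 22.7, 4.63, 16.1 and 2.85 CPM (wildtype) and 24.4, 21.7, 4.30, 12.04 and 10.8 CPM (*Eppk1*-/-). *Cers4*, a synthase of long-chain ceramides, had 161 keratinocyte UMIs in all, at 4.52, 4.79, 0.964, 0.976 and 0 CPM (wildtype) and 3.03, 3.10, 0.789, 16.1 and 6.70 CPM (*Eppk1*-/-). *Degs2*, the enzyme of phytoceramide formation, was also near the limit of these counts, with 175 UMIs over all keratinocytes, at 3.16, 4.403, 1.67, 2.44 and 0.815 CPM (wildtype) and 2.24, 4.43, 3.07, 4.01 and 4.12 CPM (*Eppk1*-/-). *Fa2h*, the fatty acid 2-hydroxylase, had 188 UMIs, at 0.678, 1.04, 0.450, 0.488 and 0.407 CPM (wildtype) and 0.958, 1.55, 0.526, 126 and 26.8 CPM (*Eppk1*-/-).

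Of the 6 genes of fatty acid elongation, activation and hydroxylation, 5 rose past the size rule. *Elovl1*, an elongase of saturated chains, stood at 158, 174, 574, 1528 and 1846 CPM (wildtype) and 162, 157, 488, 1552 and 1764 CPM (*Eppk1*-/-). *Elovl4*, the elongase of the ultra-long chains of acylceramide, peaked in the first Flg+Lor stage, at 36.7, 66.0, 893, 1024 and 698 CPM (wildtype) and 48.4, 53.8, 766, 1874 and 864 CPM (*Eppk1*-/-). *Cyp4f39*, the omega-hydroxylase of those chains, followed the same course, at 10.8, 18.0, 297, 422 and 233 CPM (wildtype) and 12.5, 13.3, 296, 441 and 214 CPM (*Eppk1*-/-). *Elovl6*, which elongates palmitate, stood at 19.0, 26.0, 135, 288 and 188 CPM (wildtype) and 21.2, 32.3, 132, 348 and 223 CPM (*Eppk1*-/-). *Slc27a4*, a fatty acid transporter with acyl-CoA synthetase activity, came on last of this arm, at 20.3, 24.5, 39.4, 83.0 and 231 CPM (wildtype) and 21.7, 23.0, 36.4, 134 and 262 CPM (*Eppk1*-/-). The exception was *Elovl7*, another elongase, at 57.3, 54.3, 102, 68.3 and 53.8 CPM (wildtype) and 43.1, 40.7, 79.6, 37.5 and 52.0 CPM (*Eppk1*-/-), with no rise past the size rule.

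Of the genes of acylceramide formation, glucosylation and lamellar body loading, *Abca12* and *Abhd5* had their onset in the high stage, and *Ugcg* and *Pnpla1* in the first Flg+Lor stage. *Abca12*, the lipid transporter of lamellar bodies, stood at 96.6, 110.2, 895, 1036 and 1164 CPM (wildtype) and 107, 129, 852, 1110.4 and 1333 CPM (*Eppk1*-/-), and was thus past 50% of its top level in the high stage, where *Lor* was at 77.9 and 48.6 CPM. *Ugcg*, which glucosylates ceramide, stood at 95.3, 84.3, 549, 804 and 945 CPM (wildtype) and 92.2, 89.7, 468, 781 and 976 CPM (*Eppk1*-/-). *Abhd5*, the co-factor of lipid hydrolases that works with *Pnpla1*, peaked in the first Flg+Lor stage, at 89.0, 100.2, 290.1, 315 and 136 CPM (wildtype) and 102, 124, 288, 330.4 and 170.5 CPM (*Eppk1*-/-). *Pnpla1*, which forms acylceramide itself, rose later, at 7.46, 7.38, 53.1, 184 and 283 CPM (wildtype) and 10.5, 9.97, 49.2, 167 and 329 CPM (*Eppk1*-/-).

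Genes that release and break down ceramide ranged from *Asah1*, on from the low stage, to *Smpd3*, with the largest rise of all members. *Smpd3*, a neutral sphingomyelinase, stood at 0.904, 0.389, 0.707, 9.28 and 619 CPM (wildtype) and 0.799, 2.66, 2.45, 20.1 and 517 CPM (*Eppk1*-/-) (log2 rise 9.33, interval 8.44 to 10.63, and 9.20, interval 8.11 to 10.96). After each cell was thinned to 2000 UMIs, 50.8% (41.7 to 59.9) and 47.5% (37.5 to 57.7) of cells in the upper Flg+Lor stage held a *Smpd3* UMI, against 0.134% (0.0162 to 0.481) and 0.0775% (0.00196 to 0.431) in the high stage (exact 95% Clopper-Pearson intervals). *Smpd3* was not a keratinocyte gene alone, since fibroblasts held 170.1 and 399.7 CPM. *Smpd1*, the acid sphingomyelinase, came on in the first Flg+Lor stage, at 24.1, 25.3, 30.1, 212 and 183 CPM (wildtype) and 27.3, 20.6, 23.3, 185 and 163 CPM (*Eppk1*-/-). *Acer1*, the alkaline ceramidase of the epidermis, peaked before the upper stage, at 13.2, 16.6, 193, 203 and 66.8 CPM (wildtype) and 9.90, 16.4, 169.6, 186 and 54.6 CPM (*Eppk1*-/-). *Asah1*, the acid ceramidase, varied only from 26.5 to 62.7 CPM over the stages and was higher in myeloid cells, at 287 and 290.4 CPM.

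In the lipoxygenase and envelope group 4 of 5 genes rose from the low to the upper Flg+Lor stage, and *Alox12e* fell. *Alox12b*, the first lipoxygenase of the route, stood at 3.16, 4.53, 158, 593 and 1117 CPM (wildtype) and 2.56, 6.86, 107, 594 and 1210.0 CPM (*Eppk1*-/-) (log2 rise 8.44 and 8.84). *Aloxe3*, which acts on its product and lies 7873 bases from it on chromosome 11, rose by 4.82 and 4.89. *Sdr9c7*, the dehydrogenase of the oxidised linoleate, stood at 2.82, 5.18, 67.6, 403 and 911 CPM (wildtype) and 3.03, 6.86, 45.5, 452 and 884 CPM (*Eppk1*-/-) (log2 rise 8.30 and 8.15). *Tgm1*, the membrane-bound transglutaminase, was present at a low level from the start and rose from the high stage on, at 29.4, 30.2, 153, 477 and 713 CPM (wildtype) and 21.7, 16.4, 91.3, 483 and 728 CPM (*Eppk1*-/-). *Alox12e*, another epidermal lipoxygenase of the mouse, rose to the high stage and then fell, at 574, 662, 926, 498 and 167 CPM (wildtype) and 543, 563, 788, 330.4 and 59.2 CPM (*Eppk1*-/-), with log2 changes of -1.78 and -3.19 from the low to the upper Flg+Lor stage.

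The epidermal acid lipases were late genes. *Lipn* stood at 1.58, 2.46, 26.3, 54.2 and 649 CPM (wildtype) and 1.76, 1.55, 27.1, 89.6 and 675 CPM (*Eppk1*-/-), a log2 rise of 8.63 and 8.52. Its neighbours *Lipk* and *Lipm* lie 19522 and 16014 bases away on chromosome 19, and rose by 4.85 and 4.85 and by 4.36 and 4.46. In the high stage *Lipm* was at 39.4% and 31.7% of its own top stage level, and *Lipk* at 4.18% and 5.67%.

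**Figure D2:**
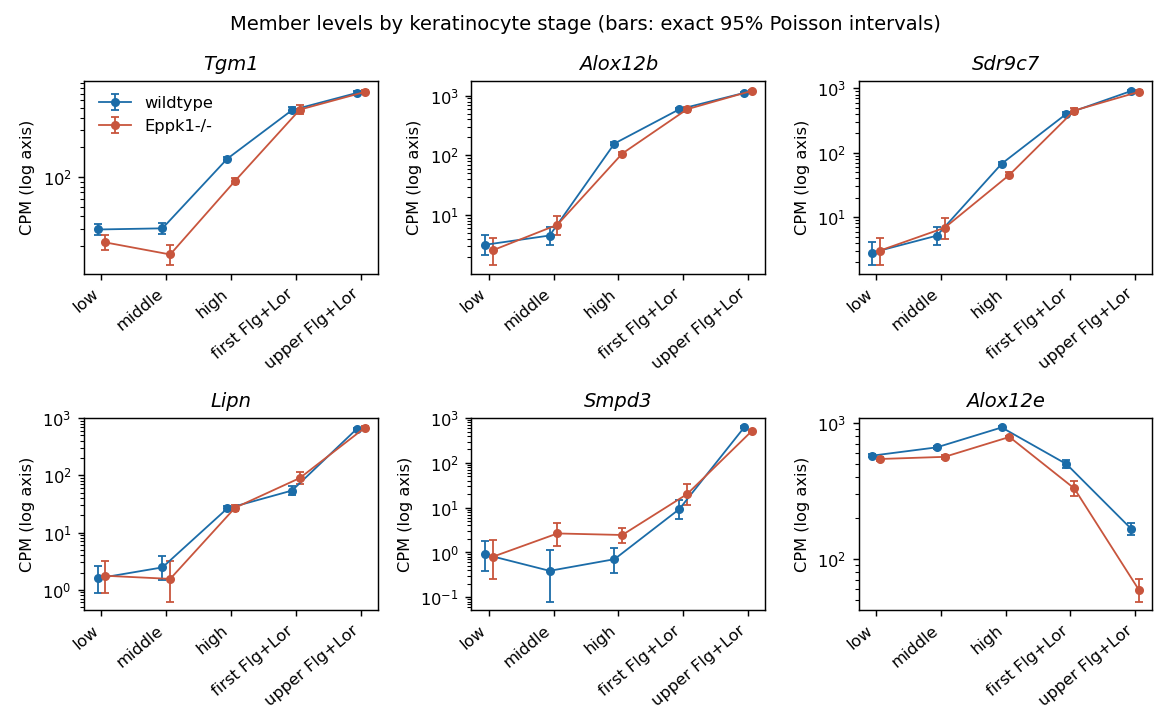
CPM (log axis) of 6 members over the 5 keratinocyte stages in the wildtype (blue) and *Eppk1*-/- (red) library, with exact 95% Poisson intervals for counting error. The *Eppk1*-/- interval lies below the wildtype one from the low to the high stage for *Tgm1*, in the high stage for *Alox12b* and *Sdr9c7* and from the middle to the upper Flg+Lor stage for *Alox12e*, and in the upper Flg+Lor stage for *Smpd3*. It lies above in the upper Flg+Lor stage for *Alox12b*, in the first for *Lipn* and in the middle and high stage for *Smpd3*, and the intervals overlap elsewhere.

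The bases before the start sites of 4 of the 5 members with the largest rises are shown, chosen by the size of the rise alone. Sequences are those of RefSeq on build GRCm38.p6, 5′ to 3′ and on the plus strand, for chr19:34067108-34067357 (*Lipn*, 250 bases), chr11:69156822-69156988 (*Alox12b*, 167 bases), chr10:127898285-127898517 (*Sdr9c7*, 233 bases) and chr17:28858161-28858410 (*Pnpla1*, 250 bases), each ending before the earlier of the RefSeq and GENCODE starts. Capitals mark an AP-1 motif in *Lipn*, a TATA motif in *Sdr9c7* and a KLF motif found at 2 places in *Pnpla1*.
Lipn: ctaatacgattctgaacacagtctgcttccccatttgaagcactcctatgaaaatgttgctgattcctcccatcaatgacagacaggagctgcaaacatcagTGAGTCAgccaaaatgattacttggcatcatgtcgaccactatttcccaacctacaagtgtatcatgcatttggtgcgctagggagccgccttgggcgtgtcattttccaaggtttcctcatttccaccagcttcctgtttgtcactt
Alox12b: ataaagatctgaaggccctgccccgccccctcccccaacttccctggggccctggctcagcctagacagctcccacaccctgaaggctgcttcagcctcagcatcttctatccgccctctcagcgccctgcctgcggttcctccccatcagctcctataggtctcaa
Sdr9c7: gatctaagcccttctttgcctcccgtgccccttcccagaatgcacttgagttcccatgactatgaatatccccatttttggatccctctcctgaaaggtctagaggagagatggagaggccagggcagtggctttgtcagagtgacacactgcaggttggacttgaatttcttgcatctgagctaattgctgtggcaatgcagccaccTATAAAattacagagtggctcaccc
Pnpla1: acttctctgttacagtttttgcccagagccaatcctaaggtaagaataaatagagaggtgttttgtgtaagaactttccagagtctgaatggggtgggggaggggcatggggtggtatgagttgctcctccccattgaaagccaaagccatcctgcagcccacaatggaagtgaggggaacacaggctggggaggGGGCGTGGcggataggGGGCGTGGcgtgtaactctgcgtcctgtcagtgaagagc

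The letters were searched on both strands in the 250 bases before the RefSeq start of 26 of the 31 members that had an entry. TGANTCA, the AP-1 motif, was found in 1 of 26 members (*Lipn*, 148 bases before the start) and in 7.82% of all 27025 genes with an entry. GGGCGTGG, the KLF motif, was found in 4 members (*Cers4*, *Cyp4f39*, *Degs1* and *Pnpla1*) and in 5.48% of all genes. TATAAA was found in 1 member (*Sdr9c7*, 42 bases before the start) and in 14.3% of all genes. AACCNGTT, the grainyhead motif, was found in 0 members and in 2.00% of all genes. A match describes letters in a window and not a site in use. The KLF and TATA motifs were added after the sequences had been seen.

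Sebaceous cells held a different selection of the same genes. In both libraries 6 members were at least 1 on the log2 scale above every keratinocyte stage, and 9.06% of all genes tested were. *Elovl4* reached 15893 and 26954 CPM, which is 3.96 and 3.85 above its highest keratinocyte stage on the log2 scale. *Fa2h* reached 4655 and 5846 CPM, 12.05 and 5.53 above its highest stage, which in the *Eppk1*-/- library was the first Flg+Lor stage with the cells that held sebaceous RNA. *Elovl6* stood at 5098 and 5165 CPM, 4.14 and 3.89 above its highest stage. *Slc27a4* stood at 1658 and 1488 CPM, 2.85 and 2.51 above. *Cers4*, the synthase that was near 0 in keratinocytes, stood at 1368 and 1159 CPM. *Acer1* stood at 759 and 1046 CPM, 1.90 and 2.49 above. *Sptlc1*, *Elovl7* and *Cyp4f39* were also higher than in every stage in both libraries, but by less than 1 in at least 1 of them, with *Cyp4f39* at 534 and 921 CPM.

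Several late epidermal members were near the counting floor in the same sebaceous cells. *Cers3* had 1 and 0 UMIs there and *Lipk* 0 and 0, where a count of 0 allows up to 2.17 and 1.64 CPM by the floor of 3 counts. *Alox12b* stood at 2.17 and 0.548 CPM, *Sdr9c7* at 1.45 and 1.64 CPM and *Tgm1* at 4.34 and 3.29 CPM. The levels were uneven among sebaceous cells: 36.7% and 55.7% of them held an *Elovl4* UMI, and the 5 cells with most gave 45.04% and 22.02% of its UMIs. *Fa2h* was held by 54.7% and 70.2%, against 0.702% and 0.642% of fibroblasts, which serve as the background.

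**Figure D3:**
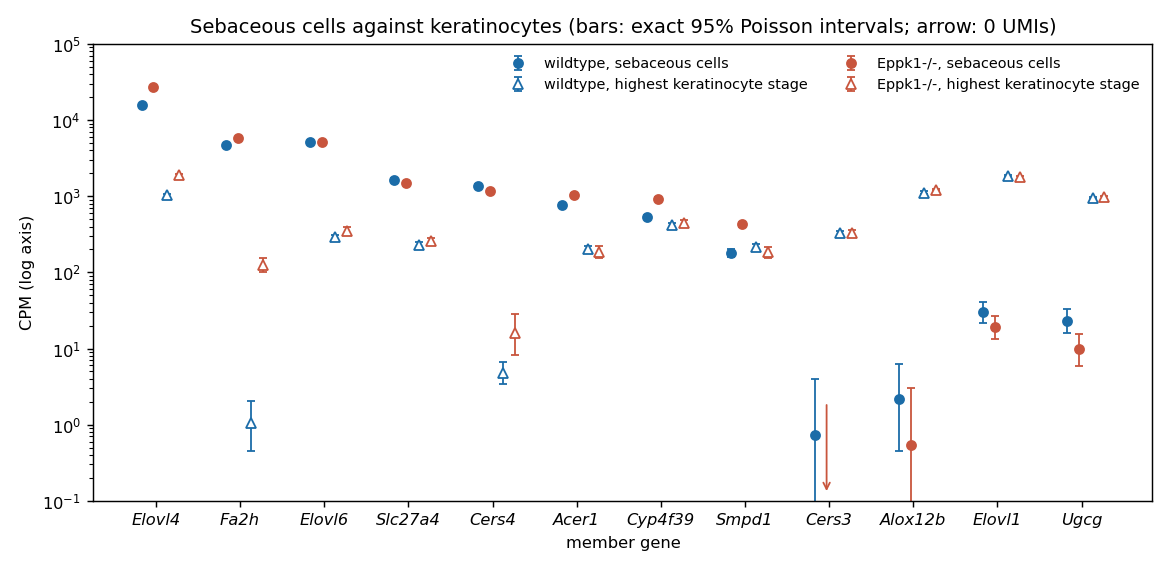
CPM (log axis) of 12 members in sebaceous cells (filled circles) and in the keratinocyte stage where each was highest (open triangles), wildtype in blue and *Eppk1*-/- in red, with exact 95% Poisson intervals and an arrow where no UMI was counted. *Elovl4*, *Fa2h*, *Elovl6*, *Slc27a4*, *Cers4* and *Acer1* lie above their keratinocyte levels in both libraries, and *Cers3*, *Alox12b*, *Elovl1* and *Ugcg* lie below.

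Between genotypes the list as a whole stayed close to parity. A member was called lower or higher where the log2 ratio of *Eppk1*-/- over wildtype was at least 0.5 in size and its exact 95% counting interval left out 0, among genes with at least 50 UMIs. Over all keratinocytes 0 of 31 members were called lower (3.94% of all genes tested were) and 1, *Fa2h*, higher (2.64% of all genes). Their median ratio was -0.046, and that of all genes -0.017. *Fa2h* stood at 0.628 and 6.63 CPM, and its ratio of 3.37 became 0.74, no longer called, without the 54 cells with sebaceous RNA. With the stages weighted by their wildtype shares of UMIs, 0 members were at -0.5 or lower and 1 at 0.5 or higher. This count is by size alone, without an interval, and the median was -0.046. Each ratio compares 1 mouse with 1 mouse, and its interval covers counting error only.

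**Figure D4:**
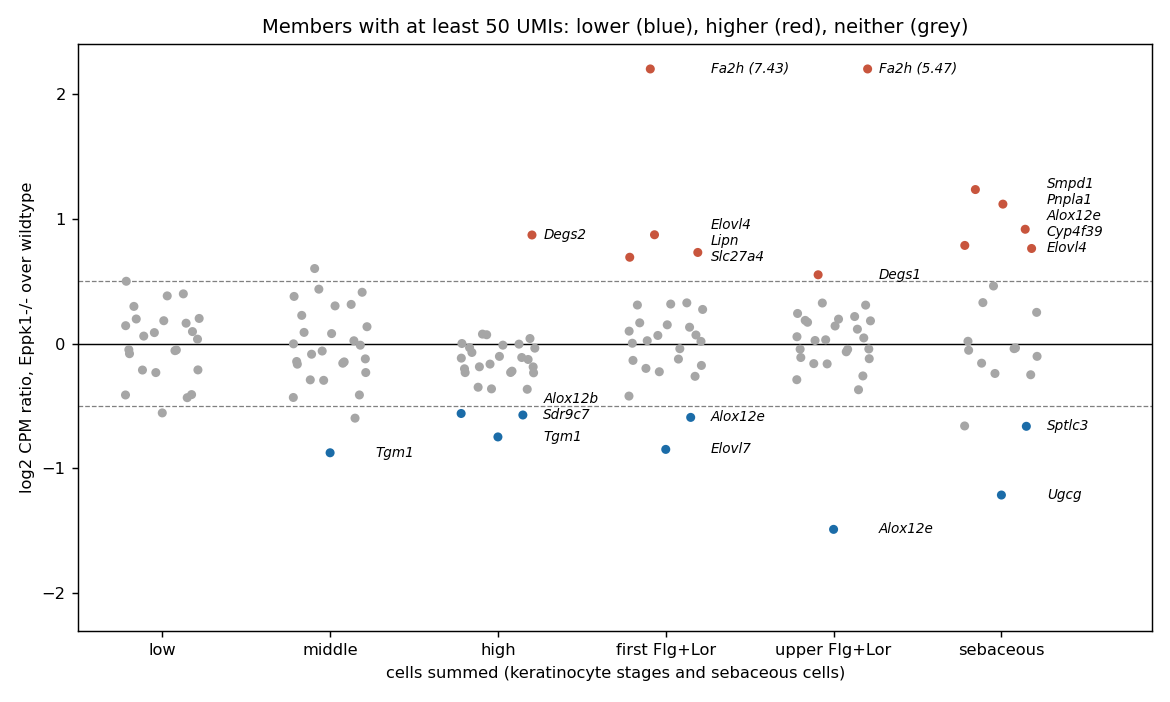
Log2 ratio of CPM, *Eppk1*-/- over wildtype, for each member with at least 50 UMIs in each keratinocyte stage and in sebaceous cells. Members called lower are blue, called higher red, others grey, dashed lines mark 0.5 in either direction, and the *Fa2h* points in the Flg+Lor stages are drawn at the top edge with their value printed. The high stage shows 3 members called lower and 1 higher, and the low stage none.

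In the low and middle stages 1 member in all was called. In the low stage 0 of 24 members tested were called lower and 0 higher, against 3.7% and 2.07% of all genes. In the middle stage 1 of 27 was lower and 0 higher, against 6.66% and 1.85% of all genes. This was *Tgm1*, at 30.2 CPM (wildtype) and 16.4 CPM (*Eppk1*-/-), giving a ratio of -0.87 (95% -1.28 to -0.50) on the log2 scale. Without clusters that carry follicle or proliferation markers, and with stage borders drawn anew, the *Tgm1* ratio of the middle stage was 0.076.

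In the high stage, the last before the granular markers, *Tgm1*, *Alox12b* and *Sdr9c7* were lower in the *Eppk1*-/- library. There 3 of 28 members were called lower and 1 higher, against 2.92% and 3.72% of all genes, with a median of -0.15 beside 0.027 for all genes. *Tgm1* stood at 153 CPM (wildtype) and 91.3 CPM (*Eppk1*-/-), giving a ratio of -0.75 (95% -0.85 to -0.64) on the log2 scale. *Alox12b* stood at 158 CPM (wildtype) and 107 CPM (*Eppk1*-/-), giving a ratio of -0.56 (95% -0.66 to -0.46) on the log2 scale. *Sdr9c7* stood at 67.6 CPM (wildtype) and 45.5 CPM (*Eppk1*-/-), giving a ratio of -0.57 (95% -0.73 to -0.42) on the log2 scale. Other markers also differed over the whole stage. Summed late keratinocyte markers stood at 2552 and 2094 CPM, with 2 of 11 higher in the *Eppk1*-/- library, and summed fibroblast markers at 403 and 634 CPM, with 7 of 7 higher. Their part in the result was not tested. The member called higher was *Degs2*, on 26 and 35 UMIs, with a log2 ratio of 0.87 (95% 0.10 to 1.67). The call ended, with 0 members higher, among others with cells thinned to 2000 UMIs and without follicle and proliferating clusters. *Elovl1*, *Elovl4* and *Alox12e* had ratios of -0.23, -0.22 and -0.23, and *Abca12* of -0.071, none of them called.

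Droplet barcodes that occur in both libraries were also left out, with stage borders drawn anew. The ratios of *Tgm1*, *Alox12b* and *Sdr9c7* in the high stage were then -0.74, -0.51 and -0.67. The count called lower in the middle stage went from 1 to 3, and the share of all genes called in that setting is not given.

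The shares of cells with a UMI moved the same way at equal depth. With each cell thinned to 2000 UMIs, *Tgm1* was found in 11.3% (9.72 to 12.99) of 1498 wildtype cells of the high stage and 8.53% (7.06 to 10.2) of 1290 *Eppk1*-/- cells, leaving out 138 and 126 shallower cells. *Alox12b* was found in 10.9% (9.41 to 12.6) and 7.44% (6.07 to 9.01). *Sdr9c7* was found in 4.94% (3.90 to 6.16) and 3.33% (2.42 to 4.46). The intervals of the libraries overlap for *Tgm1* and *Sdr9c7* and not for *Alox12b*. They take the cells of 1 mouse each as units and hold no variation between animals, so they cannot compare genotypes. The shares are also drawn from the same UMIs as the ratios and are not separate evidence. Thinned fibroblasts, which should lack these genes, held them in at most 0.537% of cells, and the shares before thinning were 25.2% and 19.1% for *Tgm1*.

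The high stage is a mixture of clusters, and the ratios differed among them. The split was chosen after the data were seen. In the cluster led by *Mt4* and *Krt1*, with 947 and 917 cells of this stage, 2 members were lower and 0 higher (all genes 3% and 2.66%). *Alox12b* there stood at 59.1 CPM (wildtype) and 25.6 CPM (*Eppk1*-/-), giving a ratio of -1.20 (95% -1.49 to -0.93) on the log2 scale, and *Tgm1* at 30.1 and 21.0 CPM (log2 ratio -0.51). Summed late keratinocyte markers stood there at 506 and 413 CPM, and summed fibroblast markers at 191 and 429.6 CPM. In the cluster led by *Cst6* and *Krt79*, an upper follicle keratin, with 297 and 246 cells, 5 were lower and 0 higher (all genes 3.2% and 3.41%). These were *Cers3*, *Alox12b*, *Sdr9c7*, *Tgm1* and *Lipn*, with log2 ratios of -0.78, -0.89, -0.70, -0.68 and -1.07. Summed late keratinocyte markers stood in this cluster at 2701 and 2649 CPM, and summed fibroblast markers at 1155 and 828 CPM. In the deep cluster led by *Wfdc21*, with 258 and 145 cells, 0 members were lower and 1, *Lipn*, higher (all genes 2.8% and 3.29%). *Tgm1* stood there at 276 CPM (wildtype) and 202 CPM (*Eppk1*-/-), giving a ratio of -0.45 (95% -0.58 to -0.32) on the log2 scale, and *Alox12b* at 287 and 277 CPM, a ratio of -0.050. Late keratinocyte markers summed to 4764 and 4806 CPM in the *Wfdc21* cluster, and fibroblast markers to 361 and 836 CPM.

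The mixture itself also moved. The *Wfdc21* cluster gave 40.7% of the UMIs of the high stage in the wildtype library and 30.5% in the *Eppk1*-/- library, and its levels of *Tgm1*, *Alox12b* and *Sdr9c7* were the highest of the 3 clusters. The part of this shift in the pooled ratios was not tested. Cells above the upper limit of 45000 UMIs, left out by the filter, comprised 252 and 171 keratinocytes with 16163381 and 11392016 UMIs. Those of the high stage had *Tgm1* at 289.8 and 243 CPM, and *Alox12b* at 462 and 393 CPM. With no cell filter the high stage had 0 members called lower, with no share of all genes given, and the ratios of *Tgm1*, *Alox12b* and *Sdr9c7* were -0.42, -0.30 and -0.32.

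**Figure D5:**
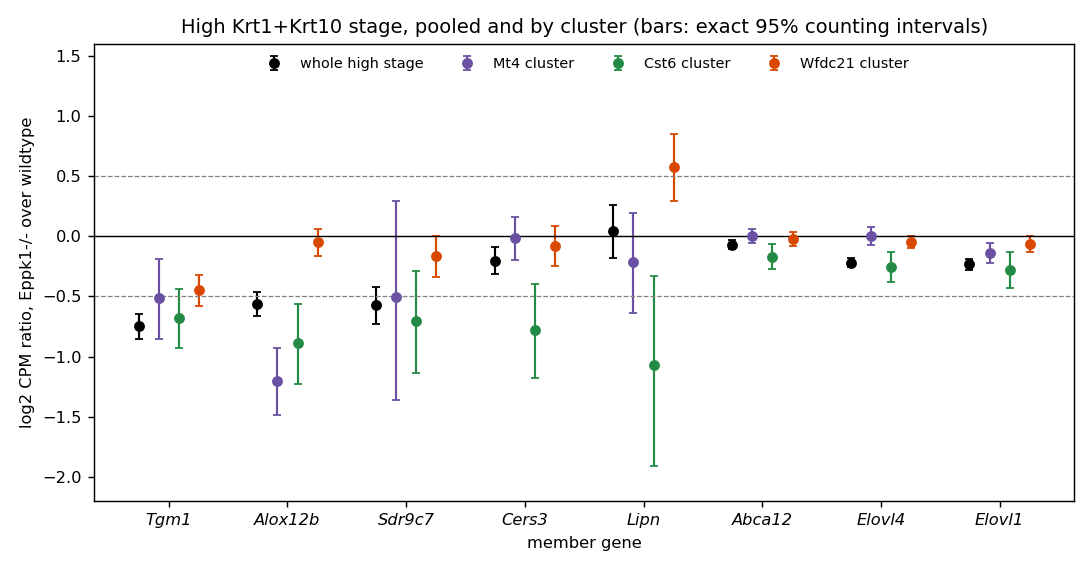
Log2 ratio of CPM, *Eppk1*-/- over wildtype, with exact 95% counting intervals for 8 members in the whole high stage (black) and in its *Mt4* (purple), *Cst6* (green) and *Wfdc21* (orange) clusters. *Tgm1* lies below 0 in each, *Alox12b* lies near 0 in the *Wfdc21* cluster and below -0.5 elsewhere, and *Abca12* lies near 0 throughout.

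At the Flg+Lor stages *Tgm1*, *Alox12b* and *Sdr9c7* were not called between the libraries. In the first Flg+Lor stage their log2 ratios were 0.018, 0.0031 and 0.17, and in the upper stage 0.031, 0.12 and -0.043. Whether the ratios of the high and the later stages differ could not be tested with 1 library each.

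*Alox12e* was lower in the *Eppk1*-/- library in both Flg+Lor stages, and also in fibroblasts, myeloid cells and dendritic or Langerhans cells, as given with their levels below. In the first Flg+Lor stage it stood at 498 CPM (wildtype) and 330.4 CPM (*Eppk1*-/-), giving a ratio of -0.59 (95% -0.80 to -0.39) on the log2 scale. In the upper stage it stood at 167 CPM (wildtype) and 59.2 CPM (*Eppk1*-/-), giving a ratio of -1.49 (95% -1.80 to -1.19) on the log2 scale. The share of cells with an *Alox12e* UMI, after thinning to 2000 UMIs, was 47.9% (38.7 to 57.2) and 29.4% (17.5 to 43.8) in the first stage. In the upper stage the share was not lower in the *Eppk1*-/- library, at 9.68% (5.10 to 16.3) and 10.9% (5.56 to 18.7), or 22.5% and 23.2% before thinning, against 2.11% and 1.42% of thinned fibroblasts. With levels taken as the mean over cells the ratio of the upper stage was -0.74. Without the cells that held sebaceous RNA the ratios of the first and the upper stage were -0.65 and -1.87. With no cell filter they were 0.13 and -0.62, and with the upper stage drawn from the highest 2.5% of keratinocytes the second was 0.96.

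Counts of members called in the Flg+Lor stages were not the same with and without the cells that held sebaceous RNA. In the first stage 2 of 27 members were lower (*Elovl7* and *Alox12e*) and 4 higher (*Fa2h*, *Elovl4*, *Slc27a4* and *Lipn*), against 4.85% and 4.71% of all genes. *Elovl7* stood at 68.3 CPM (wildtype) and 37.5 CPM (*Eppk1*-/-), giving a ratio of -0.85 (95% -1.51 to -0.27) on the log2 scale. *Elovl4* stood at 1024 and 1874 CPM, *Fa2h* at 0.488 and 126 CPM and *Slc27a4* at 83.0 and 134 CPM, each a gene that sebaceous cells hold at a far higher level. Summed sebaceous markers stood at 264 and 1181 CPM in this stage, with 10 of 11 higher in the *Eppk1*-/- library. The cells with sebaceous RNA were then left out, with stage borders drawn anew. The ratio of *Elovl4* went from 0.87 to 0.28, that of *Slc27a4* from 0.69 to 0.14 and that of *Fa2h* from 7.43 to 3.22. In this setting 1 member, *Lipn*, was still called higher, and the share of all genes called is not given. *Lipn* stood at 54.2 and 89.6 CPM, a ratio of 0.73 (95% 0.27 to 1.18). This ratio was 0.030 with no cell filter, 0.041 with Flg+Lor stages from the highest 10% of keratinocytes and -0.39 with the highest 2.5%, where that of *Elovl7* was 0.097.

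In the upper Flg+Lor stage 1 of 28 members was lower (*Alox12e*) and 2 higher (*Degs1* and *Fa2h*), against 4.89% and 4.74% of all genes. *Degs1* stood at 40.7 CPM (wildtype) and 59.8 CPM (*Eppk1*-/-), giving a ratio of 0.55 (95% 0.15 to 0.95) on the log2 scale, and *Fa2h* at 0.407 and 26.8 CPM. Without the cells with sebaceous RNA neither was called higher, with ratios of 0.079 and 1.28, and 2 members were called lower. Without the shared droplet barcodes 3 were lower and 0 higher in the upper stage, and 1 was higher in the first. The shares of all genes called in these settings are not given, so the counts cannot be read as a result about the members.

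In sebaceous cells *Smpd1*, *Elovl4* and *Cyp4f39* were higher in the *Eppk1*-/- library. *Elovl4* and *Cyp4f39*, an elongase and the omega-hydroxylase, were not called in the sebaceous cells with more *Scd1*. *Sptlc3* was lower over the whole class, but its direction turned between sebaceous cells with more and with less *Scd1*. The median ratio was -0.035 for members and -0.17 for all genes tested there. Of 19 members tested 2 were lower and 5 higher, against 19.5% and 5.24% of all genes. *Elovl4* stood at 15893 CPM (wildtype) and 26954 CPM (*Eppk1*-/-), giving a ratio of 0.76 (95% 0.74 to 0.79) on the log2 scale. *Cyp4f39* stood at 534 CPM (wildtype) and 921 CPM (*Eppk1*-/-), giving a ratio of 0.79 (95% 0.66 to 0.91) on the log2 scale. *Smpd1* stood at 182 CPM (wildtype) and 428 CPM (*Eppk1*-/-), giving a ratio of 1.23 (95% 1.03 to 1.45) on the log2 scale, the largest ratio of the members tested there. *Pnpla1* and *Alox12e* were also higher, on 14 and 41 and on 23 and 58 UMIs. *Sptlc3* stood at 195 CPM (wildtype) and 123 CPM (*Eppk1*-/-), giving a ratio of -0.66 (95% -0.92 to -0.40) on the log2 scale. *Ugcg* was lower too, on 32 and 18 UMIs. The other members that were highest in these cells, *Cers4*, *Fa2h*, *Elovl6*, *Slc27a4*, *Acer1*, *Sptlc1* and *Elovl7*, had ratios of -0.24, 0.33, 0.019, -0.16, 0.46, -0.25 and 0.25, none called.

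The sebaceous cells of the libraries were not alike in *Scd1* level or depth. Their median was 6139.5 and 12741 UMIs a cell, 58 and 78 of them held at least 1% of UMIs from *Scd1* (a desaturase of sebum formation), and summed fibroblast markers stood at 2010.5 and 947 CPM, 0 of 7 being higher in the *Eppk1*-/- library. Among cells with at least 1% *Scd1*, a split chosen after the data were seen, 1 member of 15, *Sptlc3*, was lower and 1, *Smpd1*, higher, against 8.38% and 4.43% of all genes. *Sptlc3* stood there at 242 CPM (wildtype) and 107 CPM (*Eppk1*-/-), giving a ratio of -1.17 (95% -1.48 to -0.87) on the log2 scale, and *Smpd1* at 246 CPM (wildtype) and 469.6 CPM (*Eppk1*-/-), giving a ratio of 0.93 (95% 0.71 to 1.16) on the log2 scale. *Elovl4* was at 23439.9 and 30800.3 CPM in those cells, and its ratio of 0.39 was no longer called. *Cyp4f39*, on 730 and 1637 UMIs there, had a ratio of 0.45 and was not called either. Summed fibroblast markers in those cells stood at 2847 and 99.1 CPM.

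Among sebaceous cells under 1% *Scd1* the picture was another. There 1 of 14 members, *Abhd5*, was lower and 8 were higher (*Sptlc3*, *Fa2h*, *Elovl4*, *Elovl7*, *Cyp4f39*, *Abca12*, *Smpd1* and *Acer1*), against 9.47% and 8.93% of all genes. *Sptlc3* stood at 106 CPM (wildtype) and 196 CPM (*Eppk1*-/-), giving a ratio of 0.88 (95% 0.33 to 1.45) on the log2 scale, so that it was called higher here and lower in the cells with more *Scd1*. *Elovl4* stood at 1328 CPM (wildtype) and 9634 CPM (*Eppk1*-/-), giving a ratio of 2.86 (95% 2.73 to 2.98) on the log2 scale. The ratios of *Cyp4f39*, *Acer1*, *Smpd1* and *Fa2h* were 2.87, 2.06, 2.04 and 0.94, that of *Cyp4f39* on 8 and 43 UMIs. Summed sebaceous markers stood at only 6212 and 8639 CPM here, against 50047 and 48628 CPM in the cells with more *Scd1*. Summed fibroblast markers stood at 396 and 4766 CPM, opposite in direction to the cells with more *Scd1*. The part of depth, *Scd1* level, the share of cells with few sebaceous markers and fibroblast RNA in the sebaceous ratios was not tested.

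Outside keratinocytes and sebaceous cells few members were high. In both libraries 13 members were highest in the upper Flg+Lor stage, 9 in sebaceous cells, 3 in the high stage, and 1 each in the middle stage, the first Flg+Lor stage and myeloid cells (*Asah1*), while the top class of *Sptlc2*, *Cers2* and *Smpd1* differed between libraries. *Cers2* stood at 136 and 82.2 CPM in myeloid cells and 60.7 and 64.2 CPM in fibroblasts, above its 4.63 and 4.30 CPM in the high keratinocyte stage. *Ugcg* was present in T or NK cells at 570 and 558 CPM and in mast cells at 458 and 474 CPM. It also stood at 343 and 361 CPM in myeloid cells and at 268 and 209 CPM in fibroblasts. In fibroblasts *Smpd3* had a log2 ratio of 1.23 (95% 1.17 to 1.30), on 2441 and 7365 UMIs. Also called there were *Pnpla1* (1.38), *Aloxe3* (-0.65) and *Alox12e* (-0.50), and the share of all genes called is not given. In that order they stood at 1.81 and 4.78, 5.65 and 3.58, and 27.2 and 19.2 CPM. The part of RNA from keratinocytes in these low levels was not tested. Fibroblasts pooled 3 clusters, of which the one led by *Pla1a* held 574 of 1851 and 1171 of 2805 cells. The part of this mixture in the ratios was not tested.

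Other genes of sphingolipid and barrier lipid metabolism, 36 in the probe set, were mixed in course. Of 31 tested from the low to the upper Flg+Lor stage 13 rose and 9 fell by at least 1 in both libraries, with medians of 0.55 and 0.40. Of all genes 8.99% rose and 55.9% fell by that much. *Nipal4*, an ichthyosis gene, rose by 5.28 and 5.48 and *Ephx3*, an epoxide hydrolase of the lipoxygenase route, by 3.43 and 3.95. *Sgms2*, a sphingomyelin synthase, and *Cers5*, a ceramide synthase, had log2 changes of -4.14 and -3.44 and of -4.72 and -4.18. Between genotypes the keratinocyte stages gave at most 1 of these genes called lower. These were *Nipal4* in the middle stage (1 of 30, all genes 6.66%) and *Acer2* in the high stage (1 of 31, all genes 2.92%). Called higher were *Asah2*, *Elovl5*, *Hsd17b12* and *Hacd2* in the first Flg+Lor stage (4 of 26, all genes 4.71%). In the upper stage *Hsd17b12* and *Hacd2* were called higher (2 of 25, all genes 4.74%). The calls in both Flg+Lor stages include the *Eppk1*-/- cells with sebaceous RNA and are not given without them. The part of those cells in these calls was not tested. In sebaceous cells 4 were lower and 8 higher of 28 tested, against 19.5% and 5.24% of all genes.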

How the data were processed

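Dorsal skin of 1 wildtype and 1 *Eppk1*-/- mouse was profiled by probe-based single-cell RNA sequencing. The authors deposited 1 matrix of raw UMI counts per library, made with Cell Ranger 8.0.1 against mm10 (GRCm38), per the labels and the study's methods. Members and gene lists were chosen with earlier results of these data known.

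The study's cell limits were applied: UMIs from 200 to 45000, detected genes from 100 to 7500, and no more than 10% mitochondrial UMIs, after which mitochondrial genes were dropped. Cells were clustered in Seurat 5.3.0 (R 4.3.3) with RPCA integration, 50 components and resolution 0.5, with members and pathway genes left out of the variable features (1959 of 2000 used). Clusters were named from listed markers, and 197 cells stayed unnamed. No doublet was removed from the values reported. Removing the highest 5% of Scrublet scores (scanpy 1.11.5) was an alternative.

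UMIs were summed per library and class (Python 3.11.15, scipy 1.17.1). Levels have exact 95% Poisson intervals. Ratios were formed with 0.5 UMI added to each sum and have exact conditional 95% intervals. Intervals and floors (3 counts) cover counting error only. Genes named with values in every stage were the 8 members with most keratinocyte UMIs, the 5 largest rises and all falls over the stages. Also named so was every member called between genotypes in a keratinocyte stage or in sebaceous cells as a whole. Members higher in sebaceous cells than in every stage were named so too, except *Sptlc1*, which is given as a range. The ratio step was tested on simulated counts of 11806 genes for all keratinocytes, where 200 of 200 changed genes were recovered and 79 unchanged genes were called. The counts were drawn with counting error only, without variation between animals. Only genes with many UMIs were changed, and by more than the size rule for calls. The test therefore says nothing about calls on few UMIs, in the smaller classes or between animals. The split of the high stage by cluster, the split of sebaceous cells by *Scd1*, and the removal of cells with sebaceous RNA or shared barcodes were chosen after the data were seen.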

Additional observations from a re-analysis of the deposited data

Results flagged for a closer look

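*Alox12e* went in opposite directions between genotypes in sebaceous cells and in the Flg+Lor stages. Its log2 ratio, *Eppk1*-/- over wildtype, was 0.92 (95% 0.22 to 1.70) in sebaceous cells, -0.59 (95% -0.80 to -0.39) in the first and -1.49 (95% -1.80 to -1.19) in the upper Flg+Lor stage. With 1 library per genotype the difference between these classes was not tested. The sebaceous value rests on 23 and 58 UMIs, of which the 5 cells with most held 87.0% and 96.6%. A lower level was not particular to the Flg+Lor stages. *Alox12e* was also called lower in fibroblasts (-0.50, 390 and 354 UMIs) and myeloid cells (-0.81, 430 and 236 UMIs). The same held in dendritic or Langerhans cells (-2.58, 114 and 15 UMIs), while in T or NK cells the ratio was 0.37 and not called. Other members were called in these classes too. In myeloid cells *Cers2*, *Fa2h*, *Smpd1* and *Alox12b* were lower, and *Smpd3* was higher (1.56, 43 and 123 UMIs), as in fibroblasts. In dendritic or Langerhans cells *Elovl1* was lower. Shares of all genes called in these classes are not given. *Alox12e* stood at 27.2 and 19.2 CPM in fibroblasts, 71.0 and 40.5 CPM in myeloid cells and 134 and 21.7 CPM in dendritic or Langerhans cells. In the high keratinocyte stage it stood at 926 and 788 CPM. The part of RNA from keratinocytes in the values of the other classes was not tested.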

How the results depend on the processing

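The counts of members were recomputed under 17 alternatives, 2 of them added after the data were seen, and the counts that moved by over 1.5 times and the ratios that changed sign are given here. Shares of all genes called under each alternative are not given, so a moved count cannot be read as a result about the members. Some recomputed ratios could not move. Settings on the minimum of UMIs and on the share of cells with a UMI change which genes are tested, not their ratios. Other settings left the cells of some classes unchanged. The number within the interval is therefore not a measure of stability. Of 339 recomputed ratios of called members, 267 stayed within the counting interval, 60 left it with the same sign and 12 changed sign. Among those with the same sign, *Fa2h* in the upper Flg+Lor stage became 0.20 with Flg+Lor stages from the highest 2.5%, *Degs2* in the high and *Tgm1* in the middle stage became 2.33 and -0.24 with stages of equal UMI sums, and *Lipn* and *Slc27a4* in the first Flg+Lor stage became 0.030 and 0.070 with no cell filter. The cause of these moves was not tested. With no cell filter, the counts of members were 1 higher in the low stage, 0 lower in the middle stage, 0 lower in the high stage, 1 lower in the first Flg+Lor stage, 1 higher in the first Flg+Lor stage and 0 higher in the upper Flg+Lor stage. There the ratio of *Alox12e* in the first Flg+Lor stage became 0.13 and *Degs1* in the upper Flg+Lor stage became -0.10. Without the 5% highest Scrublet scores, the counts of members were 2 lower in the low stage. With Flg+Lor stages from the highest 2.5%, the counts of members were 3 lower in the middle stage, 5 lower in the high stage, 3 higher in the high stage and 5 falling over the stages. There the ratio of *Elovl7* in the first Flg+Lor stage became 0.097, *Lipn* in the first Flg+Lor stage became -0.39 and *Alox12e* in the upper Flg+Lor stage became 0.96. With Flg+Lor stages from the highest 10%, the counts of members were 0 higher in the high stage and 1 higher in the upper Flg+Lor stage. There the ratio of *Fa2h* in the first Flg+Lor stage became -0.13, *Elovl4* in the first Flg+Lor stage became -0.18, *Slc27a4* in the first Flg+Lor stage became -0.52 and *Degs1* in the upper Flg+Lor stage became -0.081. With Krt1+Krt10 stages of equal UMI sums, the counts of members were 1 higher in the low stage, 0 lower in the middle stage and 0 higher in the high stage. Without follicle and proliferating clusters, the counts of members were 2 higher in all keratinocytes, 1 lower in the low stage, 2 higher in the low stage, 0 lower in the middle stage, 0 higher in the high stage, 4 lower in the first Flg+Lor stage, 0 higher in the upper Flg+Lor stage and 2 at 0.5 or higher with the wildtype stage mix. There the ratio of *Tgm1* in the middle stage became 0.076. With cells thinned to 2000 UMIs, the counts of members were 1 lower in all keratinocytes, 1 higher in the low stage, 1 higher in the middle stage, 0 higher in the high stage, 1 lower in the first Flg+Lor stage and 4 higher in the upper Flg+Lor stage. There the ratio of *Degs1* in the upper Flg+Lor stage became -0.42. With TMM scaling, the counts of members were 1 lower in sebaceous cells. With ratios centred on the median of all genes, the counts of members were 1 lower in sebaceous cells. With levels taken as the mean over cells, the counts of members were 2 higher in all keratinocytes, 1 lower in the low stage, 1 higher in the low stage, 0 higher in the high stage, 5 lower in the first Flg+Lor stage, 2 lower in the upper Flg+Lor stage, 5 higher in the upper Flg+Lor stage and 8 higher in sebaceous cells. With no minimum of UMIs, the counts of members were 1 higher in the middle stage, 2 higher in the high stage and 5 higher in the upper Flg+Lor stage. With only genes found in at least 25% of cells of the class, the counts of members were 0 higher in all keratinocytes, 0 lower in the middle stage, 1 lower in the high stage, 0 higher in the high stage, 0 lower in the upper Flg+Lor stage, 1 higher in the upper Flg+Lor stage, 1 lower in sebaceous cells and 3 higher in sebaceous cells. Without keratinocytes with over 0.5% sebaceous marker UMIs, the counts of members were 0 higher in all keratinocytes, 1 higher in the first Flg+Lor stage, 2 lower in the upper Flg+Lor stage, 0 higher in the upper Flg+Lor stage and 0 at 0.5 or higher with the wildtype stage mix. Without droplet barcodes in both libraries, the counts of members were 0 higher in all keratinocytes, 1 higher in the low stage, 3 lower in the middle stage, 1 higher in the middle stage, 1 higher in the first Flg+Lor stage, 3 lower in the upper Flg+Lor stage, 0 higher in the upper Flg+Lor stage, 1 lower in sebaceous cells and 0 at 0.5 or higher with the wildtype stage mix. There the ratio of *Degs1* in the upper Flg+Lor stage became -0.087. No paired analysis was possible because each genotype has 1 library, and for the same reason no replicate could be left out. Depth limits the ratios of *Fa2h*, *Cers4*, *Degs2* and *Lipk* most, which had few UMIs in keratinocytes.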
